A study of Rattus norvegicus with 10 samples.

Results

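The liver makes glucose and stores it as glycogen, and 10 genes of these 2 pathways are described here in rat livers after a carcinogen and a scarring toxin. The genes were chosen by symbol as Pck1, G6pc1, Fbp1, Pc, Slc37a4 and Slc2a2 for glucose output, and Gys2, Pygl, Gbe1 and Ppp1r3c for glycogen. They had 18 probes on the array, all of which passed the filter on dim probes, and they are 10 of the 13832 genes that could be named and of the 6855 that were tested. Liver RNA came from 10 male Wistar rats, 1 array per rat. The control rats (n = 5) had received vehicle only. The DEN/TAA rats (n = 5) had received 200 mg/kg diethylnitrosamine, a DNA-alkylating liver carcinogen, by 1 intraperitoneal injection when 6 weeks old. Injections of 200 mg/kg thioacetamide, which hepatocytes activate and which scars the liver, began 2 weeks after that and were given for 3 weeks of every 4 over a period of 23 weeks. That schedule would outlast the 23 weeks of age that the labels give for every rat, so the age is not settled here. All rats share strain, sex and tissue. The labels do not say whether tumour nodules or surrounding tissue were sampled.

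Between meals hepatocytes release glucose made from lactate, glycerol and amino acids, and glucose freed from glycogen. Pyruvate carboxylase and the cytosolic phosphoenolpyruvate carboxykinase open the synthetic route, and fructose-1,6-bisphosphatase takes it past an irreversible step of glycolysis. Glucose-6-phosphatase in the endoplasmic reticulum ends both routes. Glucagon raises transcription of the carboxykinase and glucose-6-phosphatase genes through cyclic AMP and the factor CREB, and insulin lowers it, largely by keeping FOXO1 out of the nucleus.

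All 13 plasma protein genes that mark hepatocytes were above background on all 10 arrays. The control arrays were dimmer, with 16.5% to 32.9% of spots well above background against 36.1% to 46.6% on DEN/TAA arrays. The brightest spike-in RNA probes read 12.4 to 13.5 (log2) on control arrays and 13.6 to 14.1 on DEN/TAA arrays. Array brightness thus went with treatment and cannot be told apart from it, and its part in the differences was not tested. Signals are given as scaled log2 values, in which 0 is the 75th percentile of the probes detected on all 10 arrays. Differences are DEN/TAA minus control, with a standard error (SE) and an adjusted p from limma, corrected over all genes tested, with a threshold of 0.05. On this scale the median difference of all genes was 0.33, and it ranged from -0.28 to 0.99 over 6 ways of scaling the arrays. The arrays lay on 3 slides, slide 1 holding rats 1 and 2 of both groups, slide 2 control rat 3 and DEN/TAA rats 3 and 4, and slide 3 control rats 4 and 5 and DEN/TAA rat 5.

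Of the 10 genes, 8 fell in DEN/TAA liver and 0 rose, where 16.3% of all genes tested fell and 39.2% rose. The median difference of the 10 genes was -1.50. All 6 genes of glucose output fell, with a median of -1.69, and the groups did not overlap for any of them, where 11.4% of all genes tested were lower without overlap and 28.1% higher. Of the 4 glycogen genes, Gys2 and Pygl fell and Gbe1 and Ppp1r3c did not pass the threshold, with a median of -0.68. The largest differences were those of G6pc1 and Pck1, and these 2 genes also varied most between treated rats. Over the 6 scalings the number that fell ran from 6 to 10 and the share of all genes that fell from 5.78% to 28.4%, and no scaling called any of the 10 genes higher. The share also depends on the filter. With no filter 41.9% of all genes fell, and 8 of the 10 genes did. Among genes detected on all 10 arrays 26.5% fell, as did all 8 of the genes tested there.

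**Figure D1:**
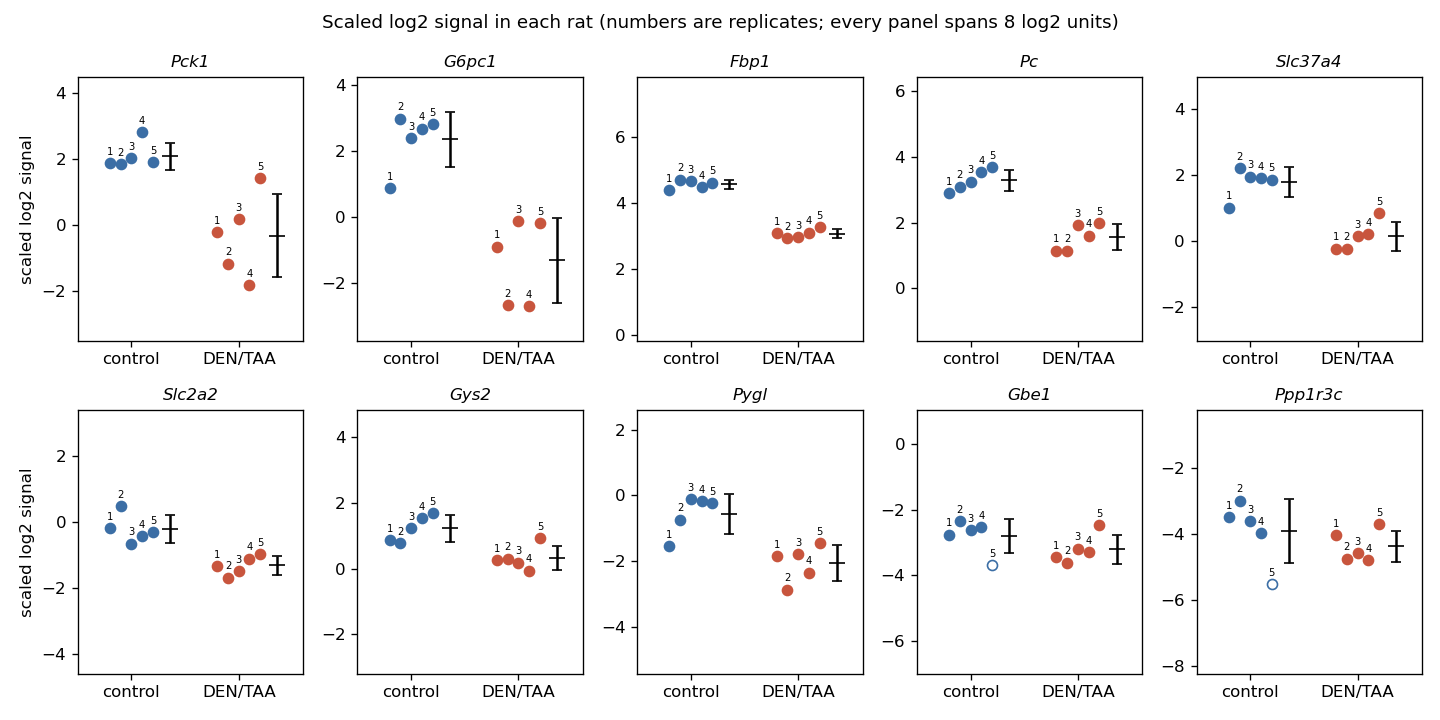
Scaled log2 signal of the 10 genes in each of the 5 control and 5 DEN/TAA rats; numbers are replicates, open circles are arrays not well above background, and bars are the mean ± SD. Each panel spans the same range of 8 log2 units, and for the 6 glucose output genes every DEN/TAA rat lies below every control rat.

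Pck1 encodes the cytosolic phosphoenolpyruvate carboxykinase, which turns oxaloacetate into phosphoenolpyruvate. Control rats 1 to 5 read 1.88, 1.84, 2.03, 2.82 and 1.91, and DEN/TAA rats 1 to 5 read -0.21, -1.17, 0.18, -1.83 and 1.42 in scaled log2 signal. The groups did not overlap, yet DEN/TAA rat 5 lay close under the controls while rat 4 lay far below them. Pck1 fell by 2.42 (SE 0.50, limma adjusted p = 0.00177), or 5.35-fold, and its other probe differed by -2.37. The SD was 1.25 among DEN/TAA rats and 0.41 among controls.

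G6pc1 encodes the catalytic subunit of glucose-6-phosphatase, which releases free glucose. Control rats 1 to 5 read 0.88, 2.99, 2.41, 2.68 and 2.82, and DEN/TAA rats 1 to 5 read -0.90, -2.68, -0.12, -2.71 and -0.18. Control rat 1 was the lowest control, and all DEN/TAA rats lay below it. G6pc1 fell by 3.68 (SE 0.59, limma adjusted p = 0.000286), or 12.8-fold, and 0.423% of all genes tested had a lower difference. Its other probe differed by -4.11 and was detected in 3 of 5 DEN/TAA rats. In both Pck1 and G6pc1, DEN/TAA rats 2 and 4 were the lowest and rats 3 and 5 the highest of their group.

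These 2 genes are the classical hormone-controlled steps, so the 250 bases before their annotated starts are shown, from the RefSeq promoter table of build GRCr8, in which 9 of the 10 genes had an entry. The Pck1 stretch is chr3:182348322-182348571 and the G6pc1 stretch chr10:86807409-86807658, both on the plus strand. Capitals mark matches to any of 6 motifs searched on both strands: TGACGTCA and TTACGTCA (cyclic AMP response element and a variant), TGACG (its core), TGTTTTG (core of insulin response elements), TTGCGCAA and CCAAT.
Pck1: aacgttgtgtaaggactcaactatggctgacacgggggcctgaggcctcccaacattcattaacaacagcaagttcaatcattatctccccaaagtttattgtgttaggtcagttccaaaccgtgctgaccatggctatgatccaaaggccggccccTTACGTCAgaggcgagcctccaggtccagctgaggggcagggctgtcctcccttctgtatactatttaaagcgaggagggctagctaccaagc
G6pc1: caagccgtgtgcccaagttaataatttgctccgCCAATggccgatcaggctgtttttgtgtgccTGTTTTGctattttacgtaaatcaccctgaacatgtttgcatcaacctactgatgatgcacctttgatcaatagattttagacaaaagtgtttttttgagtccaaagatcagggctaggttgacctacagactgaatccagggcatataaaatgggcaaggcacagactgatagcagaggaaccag
In Pck1 the capitals are TTACGTCA at -93 to -86, counted from the start, and TGACG on the minus strand lies inside that match. TTACGTCA occurs in 0.75% of the 33469 promoter stretches in the table, and Pck1 was the only one of the 9 genes that held it. In G6pc1 the capitals are CCAAT at -217 to -213 and TGTTTTG at -186 to -180. TGTTTTG occurs in 5.46% of the stretches and CCAAT in 34.0%. These are matches of letters, and binding was not measured.

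Fbp1 encodes fructose-1,6-bisphosphatase. The controls, rats 1 to 5, read 4.39, 4.72, 4.67, 4.48 and 4.63, and DEN/TAA rats 1 to 5 read 3.08, 2.94, 2.98, 3.11 and 3.27. The rats of each group lay close together, with an SD of 0.14 in control and 0.13 in DEN/TAA, and a wide gap separated the groups. Fbp1 fell by 1.50 (SE 0.13, limma adjusted p = 4.59e-06), the smallest SE of the 10 genes, and its other probe differed by -1.71.

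Pc encodes pyruvate carboxylase, the mitochondrial enzyme that makes oxaloacetate from pyruvate. Its 1 probe read 2.89, 3.09, 3.24, 3.52 and 3.69 in control rats 1 to 5, and 1.14, 1.15, 1.93, 1.60 and 1.99 in DEN/TAA rats 1 to 5. Every DEN/TAA rat was below every control. Pc fell by 1.73 (SE 0.23, limma adjusted p = 6.89e-05), or 3.31-fold.

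Slc37a4 encodes the carrier that brings glucose 6-phosphate into the endoplasmic reticulum, where glucose-6-phosphatase works. Its signal was 1.00, 2.21, 1.95, 1.90 and 1.85 in control rats 1 to 5, and in DEN/TAA rats 1 to 5 it was -0.25, -0.25, 0.13, 0.20 and 0.83. DEN/TAA rat 5 lay just under control rat 1, and the groups did not overlap. Slc37a4 fell by 1.65 (SE 0.26, limma adjusted p = 0.000286), and its other probe differed by -1.63.

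Slc2a2 encodes GLUT2, the transporter that passes glucose across the hepatocyte membrane. Control rats 1 to 5 read -0.19, 0.48, -0.66, -0.43 and -0.31, and DEN/TAA rats 1 to 5 read -1.33, -1.69, -1.50, -1.12 and -0.97. The highest DEN/TAA rat, rat 5, was still below the lowest control, rat 3. The difference of Slc2a2 was -1.10 (SE 0.22, limma adjusted p = 0.00153), or 2.14-fold lower, and with spike-in scaling the call was lost (-0.44, adjusted p = 0.207). Its other probe, above background on 2 control and 4 DEN/TAA arrays, differed by -0.63.

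Gys2 encodes the liver glycogen synthase. Control rats 1 to 5 read 0.87, 0.78, 1.23, 1.54 and 1.69, and DEN/TAA rats 1 to 5 read 0.26, 0.30, 0.19, -0.06 and 0.93. DEN/TAA rat 5 lay above control rats 1 and 2, and the other 4 DEN/TAA rats lay below every control. Gys2 fell by 0.90 (SE 0.23, limma adjusted p = 0.00634), and its other probe differed by -1.18. With spike-in scaling the call was lost (-0.24, adjusted p = 0.451).

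Pygl encodes the liver glycogen phosphorylase, which frees glucose units from glycogen. Its 1 probe read -1.54, -0.74, -0.12, -0.17 and -0.24 in control rats 1 to 5, and -1.85, -2.86, -1.79, -2.34 and -1.46 in DEN/TAA rats 1 to 5. Control rat 1 fell among the DEN/TAA rats, and the other 4 controls lay above all of them. Pygl fell by 1.50 (SE 0.32, limma adjusted p = 0.00217), or 2.83-fold.

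Gbe1 encodes the glycogen branching enzyme. In control rats 1 to 5 it read -2.76, -2.36, -2.62, -2.53 and -3.69, the last not well above background, and DEN/TAA rats 1 to 5 read -3.43, -3.62, -3.18, -3.30 and -2.48. The groups overlapped, control rat 5 being the lowest of all and DEN/TAA rat 5 lying among the other controls. The difference was -0.41 (SE 0.28, limma adjusted p = 0.229). Without control rat 5, the array with the fewest spots above background, it was -0.63 (adjusted p = 0.0312).

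Ppp1r3c encodes a glycogen-targeting subunit of protein phosphatase 1, which brings the phosphatase to glycogen synthase and phosphorylase. Control rats 1 to 5 read -3.49, -2.99, -3.61, -3.99 and -5.53, the last not well above background, and DEN/TAA rats 1 to 5 read -4.05, -4.75, -4.58, -4.80 and -3.71. Control rat 5 was again the lowest of all, and DEN/TAA rat 5 the highest treated rat. The difference was -0.46 (SE 0.42, limma adjusted p = 0.374), and without control rat 5 it was -0.86 (adjusted p = 0.0199). The other probe, above background on 3 control and 2 DEN/TAA arrays, differed by -1.03. With probes fitted singly, 15 of the 18 probes passed as lower, this one among them, where 13.7% of all probes tested did, so the 2 probes of Ppp1r3c stood on different sides of the threshold.

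Within the slides, the 8 genes that fell were lower in DEN/TAA on each of the 3. Pck1 differed by -2.55, -2.86 and -0.94 on slides 1, 2 and 3, and G6pc1 by -3.72, -3.82 and -2.94. Fbp1 differed by -1.54, -1.62 and -1.29, the narrowest spread of the 8 together with Pc at -1.84, -1.48 and -1.62. Gbe1 differed by -0.96, -0.62 and 0.63, and Ppp1r3c by -1.16, -1.08 and 1.05, so for these 2 genes slide 3, which holds control rat 5 and DEN/TAA rat 5, went the other way. Each slide holds at most 2 rats of a group, and no test was made within slides.

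**Figure D2:**
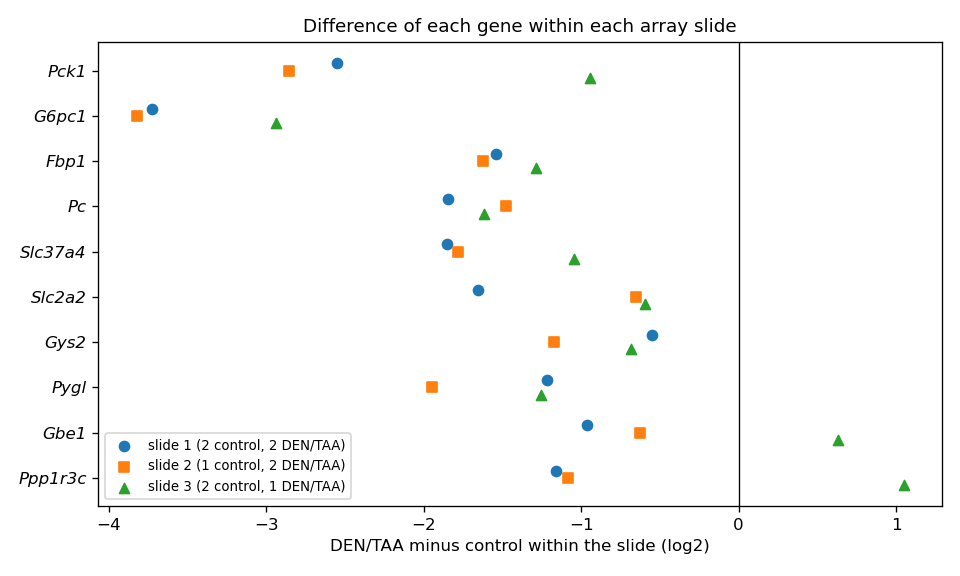
Log2 difference, DEN/TAA minus control, of each of the 10 genes within each of the 3 array slides (points; the vertical line is 0). The 8 genes called lower lie left of 0 on all 3 slides, and Gbe1 and Ppp1r3c lie right of 0 on slide 3.

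The size of each difference moved with the scaling of the arrays. Pck1 ran from -2.73 to -1.76 over the 6 scalings, G6pc1 from -3.98 to -3.02 and Fbp1 from -1.81 to -0.84, and these 3 genes were called in all 6, as were Pc, Slc37a4 and Pygl. Gbe1 ran from -0.85 to 0.25 and Ppp1r3c from -0.98 to 0.20, with both above 0 when arrays were scaled to spike-in RNA. Read against the median difference of all genes in the same scaling, each of the 10 genes lay lower in each of the 6 scalings. The percentile over detected probes, the percentile over all probes and spike-in scaling give the same values on this footing. They differ only by a factor per array, which the subtraction cancels, so they are not separate checks here. On that footing G6pc1 lay 3.22 to 4.00 and Ppp1r3c 0.36 to 0.81 under the median gene. All 6 scalings used the same genes that passed the filter on dim probes. With no filter the median difference of 13832 genes was -0.50, and 8 of the 10 genes lay below it. Gbe1 (-0.41) and Ppp1r3c (-0.46) then lay above the median gene.

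**Figure D3:**
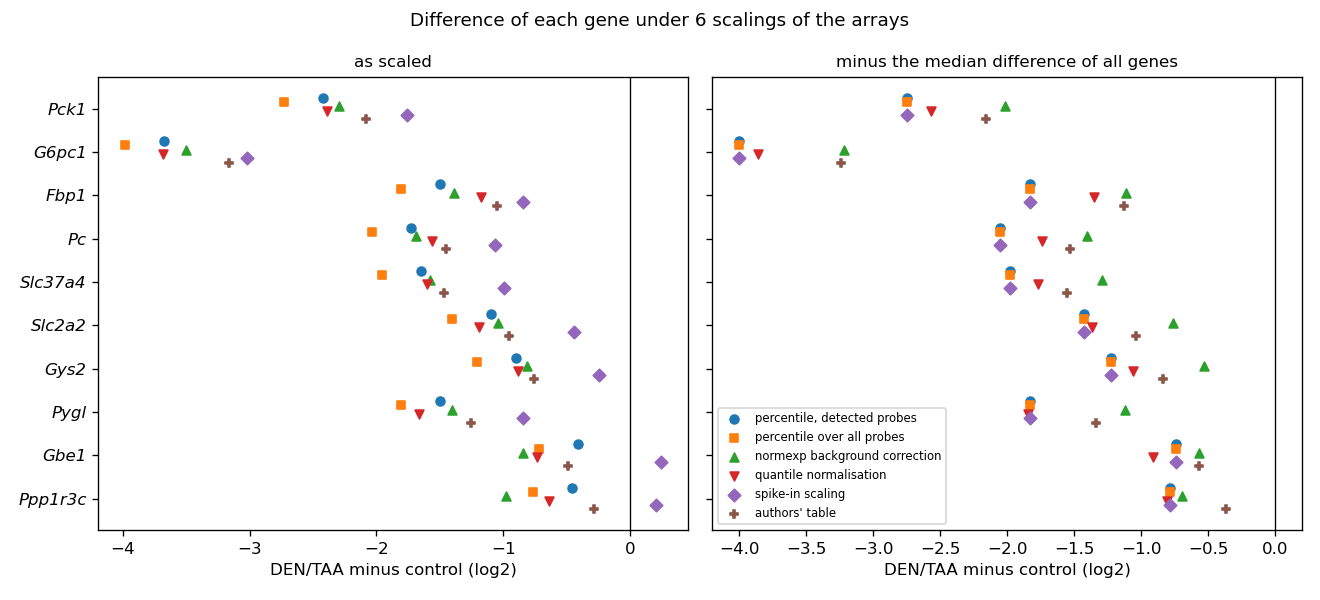
Log2 difference, DEN/TAA minus control, of the 10 genes under 6 scalings of the arrays (symbols), as scaled on the left and after subtracting the median difference of all genes tested on the right. On the left Gbe1 and Ppp1r3c cross 0 with spike-in scaling, and on the right all points lie below 0. On the right both percentile scalings and spike-in scaling have the same values by construction.

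Markers of other cell types moved in the same livers. The counts below stand beside 16.3% of all genes tested that fell and 39.2% that rose. Over the 6 scalings 883 (normexp) to 4443 (spike-in scaling) of the 6855 genes were called higher. Of the plasma protein genes of hepatocytes 12 of 13 fell (5 to 12 over the 6 scalings, with 0 to 2 higher), with a summed level (log2) of 9.13 to 9.73 in control and 8.08 to 8.38 in DEN/TAA rats. Of 7 biliary markers 4 passed the filter, with summed levels of -3.87 to -2.88 in control and -0.69 to 0.20 in DEN/TAA, and Krt19, Spp1 and Cldn4 were above background on no control array and passed through DEN/TAA arrays alone. The fourth, Epcam, rose by 2.67, and over the 6 scalings 2 to 4 of the 4 were called higher. Of 9 stellate and matrix markers 8 were tested and 7 rose (5 to 8 over the scalings), with summed levels of -0.089 to 0.60 and of 2.22 to 2.81. The 8 macrophage markers had summed levels of 2.02 to 3.07 in control and 3.73 to 4.34 in DEN/TAA. Of these 8, 5 to 8 were called higher and 0 to 1 lower over the 6 scalings, and Cd163 was above background on no control array, so that no fold can be given. Of 6 endothelial markers 4 were tested and 3 rose (1 to 4 over the scalings), and their summed levels overlapped, at 0.10 to 1.14 and 0.60 to 1.02. Epcam, Vim and Pdgfrb were above background on 4 control arrays, Dcn and Des on 2, and Csf1r and Esam on 1. Their 5 DEN/TAA arrays alone met the filter, so their calls are limited support for a rise of these lists. In whole liver, fewer hepatocytes and less RNA per hepatocyte cannot be told apart, and the part of cell makeup in the falls was not tested.

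Set against the mean of the 13 plasma protein genes in the same rat, the 10 genes split. G6pc1 was still lower by a difference of -2.56 and Pck1 by -1.31, followed by Pc (-0.61), Slc37a4 (-0.53), Fbp1 (-0.39) and Pygl (-0.39). Slc2a2 (0.015) and Gys2 (0.21) were at or above the plasma protein genes in their change, and Gbe1 (0.70) and Ppp1r3c (0.66) lay above them. The last 2 values lean on control rat 5, where neither gene was well above background. That rat had the lowest control value for both, at -9.20 for Gbe1 and -11.04 for Ppp1r3c. On this measure the groups overlapped for every one of the 10 genes, G6pc1 by control rat 1 alone, whose value was -4.38 where the highest DEN/TAA rat had -4.23. These values are descriptions with no test, and they do not depend on how arrays were scaled to each other by a single factor.

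Genes of the opposing, glycolytic side were lower as well. Of 5 listed genes, which include regulators beside enzymes, 4 fell and 0 rose, where 16.3% of all genes fell, and 4 to 5 fell over the 6 scalings. Pklr, the liver pyruvate kinase, read 0.28, -0.43, -0.81, -1.36 and -0.94 in control rats 1 to 5 and -3.19, -3.63, -3.04, -3.78 and -3.30 in DEN/TAA rats, and fell by 2.73 (SE 0.28, limma adjusted p = 1.32e-05). The groups did not overlap for Pklr. Gckr, which encodes a regulatory protein and no glycolytic enzyme, fell by 3.25 (SE 0.29). Pfkl, the liver phosphofructokinase, differed by -0.68 (adjusted p = 0.329) and was above background on 1 control array.

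Since Pklr fell beside Pck1, the balance of opposed enzymes was compared within each rat, where scaling by an array factor cancels. The level of a difference between 2 probes has no meaning, and its change between groups was tested with a two-sided exact permutation test over all 252 assignments of rats, adjusted over the 4 pairs tested, of which 3 are given. Pck1 minus Pklr changed by 0.31 (exact p = 0.611, adjusted p = 0.627) and was above the control mean in 3 of 5 DEN/TAA rats. Fbp1 minus Pfkl changed by -0.82 (exact p = 0.286, adjusted p = 0.571) and rests on a Pfkl probe mostly under background in control. Neither change was larger than the spread between rats on this scale. In the authors' table Fbp1 minus Pfkl passed (-1.01, adjusted p = 0.0317 by the same exact test) and Pck1 minus Pklr turned to -0.052.

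The last pair sets glycogen breakdown against synthesis. Pygl minus Gys2 read -2.41, -1.52, -1.35, -1.70 and -1.93 in control rats 1 to 5 and -2.11, -3.16, -1.98, -2.28 and -2.39 in DEN/TAA rats. All 5 DEN/TAA rats were below the control mean, and control rat 1 lay among them. The change of -0.60 did not pass the test (exact p = 0.0635, adjusted p = 0.254). It was -0.67, -0.78 and -0.57 within slides 1, 2 and 3, each with at most 2 rats of a group. With slide as a block the change was -0.67 (exact permutation test within slides, adjusted p = 0.222). Rats were then reassigned only within their slide, which leaves too few assignments for this pair alone to pass after adjustment. The blocked test therefore cannot decide whether this balance changed.

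**Figure D4:**
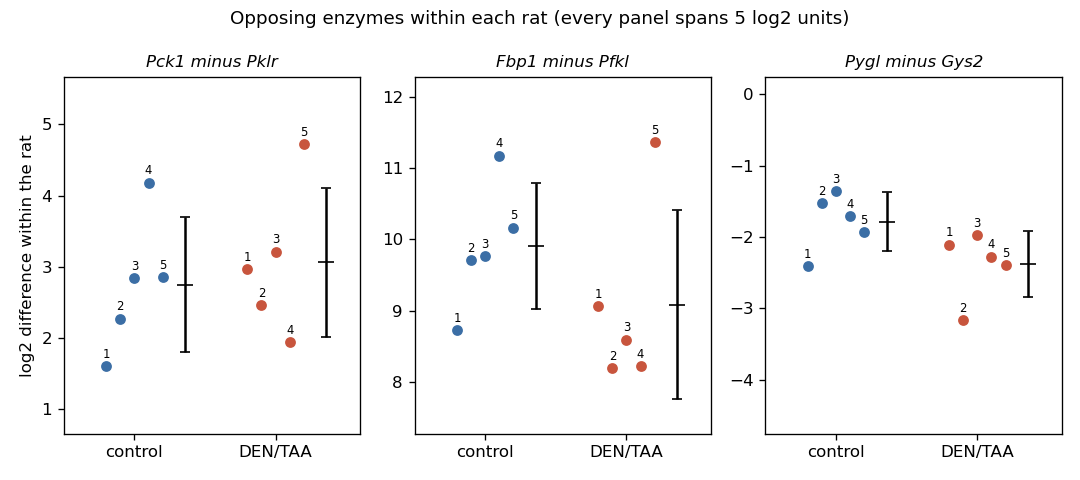
Difference in scaled log2 signal between 2 opposing enzymes within each rat, for 3 pairs (numbers are replicates, bars the mean ± SD, n = 5 a group). The groups overlap in every panel, and for Pygl minus Gys2 the 5 DEN/TAA rats lie below the control mean of -1.79.

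Isozymes and transporters that serve the same steps in other tissues form a list of 14 genes, of which 8 passed the filter. Of these, Pygb, Hk3, Fbp2 and G6pc3 were above background on no control array and passed through the DEN/TAA arrays alone, so their calls are no support for a rise of the list. The other 4, Pck2, Hk1, Pkm and Slc2a1, rose, where 39.2% of all genes tested did. They were above background on 4, 2, 3 and 3 of 5 control arrays. Their 5 DEN/TAA arrays alone met the filter, so their calls are limited support for a rise of the list too. In the authors' table their differences were smallest, at 0.53, 1.57, 1.03 and 0.93. Over the 6 scalings 3 to 8 of the 8 were called higher and 0 to 1 lower. Pck2, the mitochondrial phosphoenolpyruvate carboxykinase, read -3.59, -3.60, -3.46, -3.71 and -3.73 in control rats 1 to 5 and -2.36, -2.40, -1.84, -2.18 and -2.13 in DEN/TAA rats. Pck2 thus went the opposite way to Pck1, up by 1.44 (SE 0.15, limma adjusted p = 1.23e-05). Its call was kept in 5 of 6 scalings.

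Hk1, a hexokinase of most other tissues, rose by 3.25 (SE 0.32) and was detected on 2 of 5 control arrays. Pkm, the pyruvate kinase of non-liver cells, rose by 2.40 (SE 0.22) and Slc2a1, the widespread glucose transporter GLUT1, by 2.07 (SE 0.34), each detected on 3 of 5 control arrays. These 3 genes were called in all 6 scalings. Pygb, the brain form of glycogen phosphorylase, was detected in all 5 DEN/TAA rats and in no control rat, and on the scale used here was at least 1.66-fold higher. With normexp, a model-based background correction, its difference was 0.27, under that bound, and its call was kept in 5 of 6 scalings. The hexokinase Hk3 was at least 1.69-fold higher on the same footing, but its difference turned to -0.15 with normexp. For this bound each control array was given the lowest signal counted as well above background, or the measured signal where that was higher.

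Fbp2, the muscle bisphosphatase, and G6pc3, the widespread glucose-6-phosphatase, passed as higher (1.51 and 1.07), but neither was above background on a control array and no fold can be given. With normexp they differed by -0.44 and -0.78. Gys1, Slc2a3, Slc2a4 and Hk2 were above background on 0 of 10 arrays and Pygm, the muscle phosphorylase, on 2 of 10, so none of them was tested.

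Other genes of glycogen metabolism were mixed. Of 19 listed genes 14 were tested, of which 2 fell, 3 rose and 9 did not pass, with a median of 0.27, against 16.3% lower, 39.2% higher and a median of 0.33 for all genes. Over the 6 scalings 1 to 4 were called lower and 2 to 10 higher. Ppp1r3b, the glycogen-targeting phosphatase subunit best known from liver, read -2.45, -1.45, -1.82, -2.04 and -3.14 in control rats 1 to 5 and -5.14, -5.14, -5.52, -6.43 and -3.91 in DEN/TAA rats. The groups did not overlap, and Ppp1r3b fell by 3.05 (SE 0.43, limma adjusted p = 0.000116), against the -0.46 of its relative Ppp1r3c. Pgm2, a phosphoglucomutase family member, rose by 1.82. Ppp1ca, a catalytic subunit of protein phosphatase 1, passed as higher at 0.40, only 0.074 above the median gene, and was called in 5 of 6 scalings. Ppp1r3d passed as higher (1.24) but was above background on no control array and no fold can be given, and it differed by -0.46 with normexp.

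Of 6 tested genes for the reversible steps that glycolysis and gluconeogenesis share, 0 fell and 2 rose. Of all genes 16.3% fell and 39.2% rose, so with 6 genes these counts do not set the list apart. Pgam1 rose by 0.88 and Eno1 by 0.49 (the latter in 5 of 6 scalings). The list median was 0.26 against 0.33 for all genes. Over the 6 scalings 0 were called lower and 1 to 5 higher. Genes that supply substrate were lower in part, with 9 of 15 tested lower, 1 higher and a median of -0.87, where 16.3% of all genes fell. Over the 6 scalings 3 to 12 were lower, and the median ran from -1.18 to -0.22. Pdk2, a kinase that restrains pyruvate dehydrogenase, fell by 1.80 (SE 0.17), Gpd1, which links glycerol to the pathway, by 1.72, and Aqp9, the glycerol channel of hepatocytes, by 0.88 (with spike-in scaling -0.22 and no call). Ldhb, a subunit of lactate dehydrogenase, was above background on no control array and at least 5.76-fold higher on the scale used here, while in the authors' table its difference was 1.18, under that bound.

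**Figure D5:**
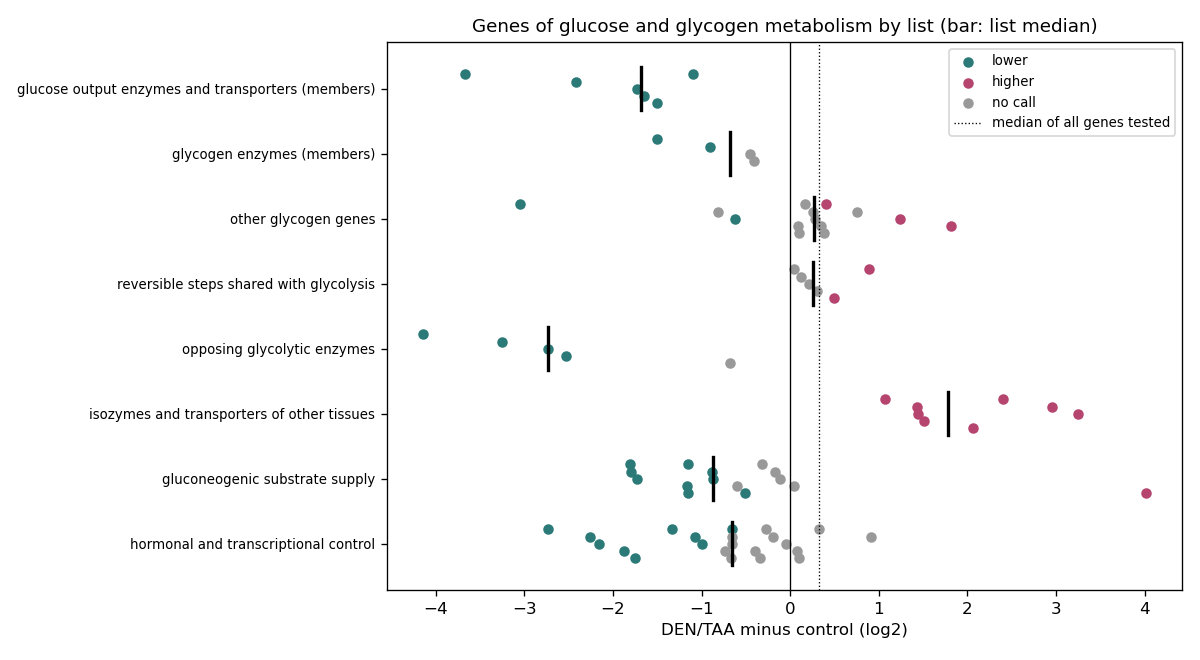
Log2 difference, DEN/TAA minus control, of each tested gene in 8 lists of glucose and glycogen metabolism (points, coloured by call at a limma adjusted p under 0.05; bars are list medians, the dotted line the median of all genes tested, 0.33). The glucose output list and the opposing glycolytic list lie left of 0 and the isozymes of other tissues right of 0, the 4 isozymes undetected in control being plotted at their measured values.

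Receptors and factors that control these genes fell in part. Of 31 listed genes 22 were tested, of which 9 fell and 0 rose, with a median of -0.66, where 16.3% of all genes fell. Over the 6 scalings 6 to 15 fell and 0 to 2 rose. Gcgr, the glucagon receptor, read 1.77, 1.78, 1.61, 1.29 and 1.85 in control rats 1 to 5 and 0.52, -0.01, 0.50, 0.21 and 0.39 in DEN/TAA rats. The groups did not overlap, and Gcgr fell by 1.34 (SE 0.16, limma adjusted p = 4.48e-05). Adra1b, the adrenergic receptor of rat liver, fell by 2.16 (SE 0.25).

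Among transcription factors Onecut1 fell by 2.73, Mlxipl, the carbohydrate response factor, by 1.88, Cebpa by 1.75, the glucocorticoid receptor gene Nr3c1 by 1.07 and Hnf4a by 0.99. Nr3c1 and Hnf4a were called in 5 of the 6 scalings and the other 3 in all 6. Insr, the insulin receptor, differed by -0.34 (limma adjusted p = 0.203) and was above background on 1 control array. Its difference ran from -1.13 with normexp to 0.32 with spike-in scaling, with a call in 2 of 6 scalings. Foxo1 differed by -0.40 (adjusted p = 0.229), and from -0.85 with normexp to 0.26 with spike-in scaling, with a call in 3 of 6 scalings. Ppargc1a, a coactivator of gluconeogenic genes, was above background on 0 of 10 arrays and was not tested.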

How the data were processed

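Liver RNA (150 ng labelled per array) was hybridised to Agilent 4x44K rat arrays in 1 colour. The deposited scanner files hold spot intensity, background-subtracted within each array, and per the file headers Feature Extraction 11.5.1.1 made them (the submitters' processing notes name 15.5). A table of log2 values deposited by the authors ranked spots as the raw median intensity did, with nearly equal column medians, and served as an alternative. Its normalisation step is not stated in the sources used.

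Control spots and outlier-flagged spots were left out, the spots of a probe were averaged as log2 processed signals, and the array's 75th percentile over the 6229 probes well above background on all 10 arrays was subtracted. Probes were kept when well above background on at least 5 of 10 arrays, a probe with several spots when at least 50% of them were. Probes were named by RefSeq accession, without versions, through the GRCr8 gene table: 17502 of 41012 probes had 1 symbol, 0 several and 23510 none here. A gene was its passing probe with the highest mean. No spot was saturated. limma 3.58.1 in R 4.3.3 was fitted to all 10 arrays without covariates (two-sided, Benjamini-Hochberg over 6855 genes). The fit was tested on simulated data. The array number limits the precision. The labels describe replicates of a group, and p-values measure the spread between these samples.

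The 10 genes, the lists and the tests were chosen with earlier results of these data known. Besides the 10 genes, the text names every changed gene of the isozyme and other glycogen lists, per further list the 3 or fewer changed genes per direction whose adjusted p was smallest, and Pklr, Pfkl, Ppargc1a, Gcgr, Insr, Foxo1, Cebpa, Hnf4a and Nr3c1. Genes listed as untested isozymes, and undetected cell markers, were named after their values were seen. Some genes that this rule names, and 1 pair of enzymes, are not reported here, but they stay in the counts and adjusted p-values. Alternatives were other scalings, normexp (offset 50, on median spot signal), the filters, the mean over probes, slide and replicate blocks, a trended robust prior, a floor for undetected arrays, and leaving out rats. Taking the percentile over detected probes followed from under 50% of spots being detected.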

Additional observations from a re-analysis of the deposited data

Results flagged for a closer look

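In 54 groups of 5 rats (the 10 genes, 3 opposing enzymes, 4 pairs and the values relative to plasma protein genes), 5 had a rat standing apart by a gap of over 0.71 of the group's range, where chance flags about 1 in 20 groups. Control rat 4 was high for Pck1 at 2.82 (gap 0.809 of the range). Control rat 1 was low for G6pc1 at 0.88 (0.724), and also relative to the plasma protein genes for G6pc1 at -4.38 (0.711) and for Pc at -2.38 (0.726). DEN/TAA rat 5 was high for Fbp1 minus Pfkl at 11.36 (0.724), where Pfkl was not well above background on that array, so the size of this difference is not measured. Without control rat 4 Pck1 still fell, as did G6pc1 without control rat 1.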

How the results depend on the processing

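The number of the 10 genes that fell was 8 with the replicate block, slide as a block, a trended robust prior, no filter, the filter on all 10 arrays (8 tested), the mean over probes and the all-probe percentile, 9 with quantile normalisation, the authors' table and the floor for undetected arrays, 10 with normexp, 6 with spike-in scaling, and 8 to 10 when 1 rat was left out. Same-numbered rats correlated from -0.22 to 0.20 in their deviations and 3 of 5 controls correlated best with their own number. Same-numbered rats 1, 2, 3 and 5 also shared a slide, so these values do not settle whether rats were paired. The labels do not say that the numbers pair rats, and the main fit did not pair them. With the replicate block 1121 of all genes were lower and 2685 higher, against 1116 and 2689. All-gene counts moved more with scaling: 1950 lower and 883 higher with normexp, 396 and 4443 with spike-in scaling, 1597 and 1617 with the all-probe percentile, and 1353 and 1941 with quantile normalisation. Other filters tested other numbers of genes: 5801 lower and 2594 higher of 13832 with no filter, and 944 and 1154 of 3568 with the filter on all 10 arrays.

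With spike-in scaling the falls of Slc2a2 (-0.44) and Gys2 (-0.24) were lost and Gbe1 (0.25) and Ppp1r3c (0.20) turned. Gbe1 passed as lower with normexp (-0.85), quantile normalisation (-0.73) and the authors' table (-0.49), and Ppp1r3c with normexp (-0.98) and the floor (-0.81). Leaving out 1 rat gave -0.63 to -0.30 for Gbe1 and -0.86 to -0.22 for Ppp1r3c, both passing only without control rat 5. Without the 2 dimmest control arrays, an alternative chosen after seeing the data, they passed at -0.70 and -0.85, and Pck1 minus Pklr was -0.035. Pck1 minus Pklr turned with the authors' table (-0.052). Fbp1 minus Pfkl passed in that table (-1.01, adjusted p = 0.0317). Leaving out 1 rat gave -0.10 to 0.67 for Pck1 minus Pklr (below 0 without DEN/TAA rat 5). The causes were not tested. The replicate block was not run for the pairs, since 5 pairs of rats cannot reach the threshold.

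Dim signal limits Gbe1 and Ppp1r3c, which were not well above background on the array of control rat 5, and the isozymes undetected in control.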

Other observations

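Gluconeogenesis is known as a periportal task of the liver lobule, and genes of both ends of the lobule were lower. Of all genes tested 16.3% fell and 39.2% rose, with a median of 0.33. Of 8 periportal markers other than the 10 genes 7 fell and 0 rose, with a median of -1.48. Over the 6 scalings 4 to 7 of them fell and 0 to 1 rose. Among the periportal markers that fell were Ass1 and Gls2, of nitrogen metabolism, by 2.07 and 2.32, and Cyp2f4 by 1.46. Of 6 tested pericentral markers 5 fell and 1 rose, with a median of -2.13, and these counts were the same over the 6 scalings. Cyp1a2 fell by 4.43, Oat by 4.17 and Cyp2e1 by 2.33, while Rhbg, an ammonia transporter, rose by 2.47 and was detected in 3 of 5 control rats. A difference between the ends of the lobule was not tested.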
